A study of Mus musculus with 12 samples.

Results

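Glutathione transferases, aldehyde dehydrogenases, aldo-keto reductases, carbonyl reductases and quinone reductases remove reactive electrophiles, aldehydes, ketones and quinones, and the expression of their genes was followed across 4 groups of mouse cells. A rule on gene names, set with earlier results of these data known, chose the genes. It took every protein-coding gene whose symbol in the GENCODE M21 annotation carries a family stem followed by a number. The stems were Gst with a class letter, Mgst, Aldh, Akr, Cbr and Nqo. This rule gave 69 of the 55487 genes in the count table, of which 21974 are protein-coding. They were 22 glutathione S-transferase genes, 3 microsomal glutathione S-transferase genes, 21 aldehyde dehydrogenase genes, 17 aldo-keto reductase genes, 4 carbonyl reductase genes and 2 quinone reductase genes.

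RNA sequencing measured 12 libraries, 3 in each group. The first pair of groups were mouse embryonic fibroblasts (MEFs) from primary culture with the label Bach1 knockout, kept in medium from ferroptotic cells or in medium from control cells. The second pair were Hepa1 cells, a mouse hepatoma line labelled wild type, kept in the same 2 kinds of medium. Medium was taken after 48 h from immortalised MEFs, which were either control cells or cells that again expressed Bach1 and are labelled ferroptotic. All 4 groups of recipient cells received it for 4 days with daily replacement, and with 10% fetal bovine serum, 0.1 mM 2-mercaptoethanol and 0.4 mg/mL vitamin E present in every group. Ferroptosis is a form of cell death driven by iron and lipid peroxidation, and 2-mercaptoethanol and vitamin E counteract it. The knockout is in the MEFs and not in Hepa1, so cell type and Bach1 genotype cannot be told apart in any comparison between the 2 cells. Animals are not named for the MEFs, and Hepa1 is a single line. The title of the series names senescence, obesity and secreted FGF21, and the question put to the data is which detoxifying enzymes differ, in either recipient, between the 2 media.

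The cytosolic glutathione transferases join glutathione to electrophiles such as the aldehydes released by lipid peroxidation, and the microsomal ones do so in membranes, where they also reduce lipid peroxides. Aldehyde dehydrogenases oxidise aldehydes to acids, whereas aldo-keto and carbonyl reductases reduce aldehydes and ketones to alcohols, and NQO1 reduces quinones without releasing semiquinone radicals. Many genes of these families respond to the transcription factor NRF2 through antioxidant response elements, sites at which BACH1 acts as a repressor, and some also respond to the aryl hydrocarbon receptor.

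Total counts per library ran from 18.58 to 23.4 M reads, so that 3 reads, the floor used here, stood for 0.128 to 0.161 CPM. CPM are counts brought to 1 shared library size, here with TMM scaling over all 12 libraries unless plain CPM is named. Bach1 had 72.1 to 77.5 plain CPM in MEFs in ferroptotic medium, 72.6 to 82.1 in MEFs in control medium, 116 to 127 in Hepa1 in ferroptotic medium and 139 to 147 in Hepa1 in control medium. These reads cover the whole gene, the deleted part is not given, and they do not check the deletion. The albumin gene Alb had 0 reads in every MEF library, but only 5 of 10 hepatocyte markers reached 1 CPM in Hepa1 in either medium, and Apoa1, Ttr and Serpina1a had 0 reads in Hepa1. Marker sums, and the counts of markers at 1 CPM, are in plain CPM. Fibroblast markers moved with the medium in both cells. Their summed level was 42935 to 44090 CPM in ferroptotic and 47344 to 49308 CPM in control medium in MEFs, where all 10 were read at 1 CPM or more. The sum in MEFs is mostly Col1a1 and Col1a2, and of the 10 genes 6 were called lower and Postn, Lum and Dcn higher, by 1.58, 2.10 and 1.77 on the log2 scale. In Hepa1 it was 3694 to 3744 CPM in ferroptotic and 2591 to 2961 CPM in control medium, where 7 and 6 of the 10 reached 1 CPM. The summed hepatocyte markers of Hepa1 were at 3838 to 4039 CPM in ferroptotic and 2736 to 2839 CPM in control medium. Of the 5 tested there, 4 were called higher and 1 lower in ferroptotic medium. Alb had 302 to 327 plain CPM in Hepa1 in ferroptotic and 29.8 to 37.1 in control medium. In MEFs the hepatocyte sum was 9.66 to 11.8 CPM in ferroptotic and 23.6 to 25.7 CPM in control medium. Summed macrophage markers were at 7.22 to 8.55 CPM in ferroptotic and 4.05 to 5.12 CPM in control medium in MEFs, and at 10.5 to 12.9 CPM in ferroptotic and 26.9 to 32.9 CPM in control medium in Hepa1. The Hepa1 sum follows Cd68, at 2.93 TMM-scaled CPM in ferroptotic and 20.8 in control medium, while Adgre1 and Lyz2 rose there by 5.61 and 1.07. Summed endothelial and epithelial markers were at most 8.38 and 0.501 CPM in any library, and the part of any of these lists in the results was not tested. The third Hepa1 library in ferroptotic medium stood apart with 368 reads of the collagen gene Col1a2, against 23 and 19 in the other Hepa1 libraries in that medium. Cbr3 and Gstt3, with 1556 and 1484 reads over the MEF libraries in control medium, had 0 and 2 reads in that library. Each of those MEF libraries had 327662 to 357459 reads of Col1a2. Cbr3 and Gstt3 are therefore too sparse to decide where the 368 reads came from, which was not tested.

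Most of the members were expressed. 3 of the 69 (Akr1c6, Aldh3b2 and Aldh3b3) had no read in any library, 8 never exceeded 3 reads, and 58 did. An average of 1 CPM was reached by 45 members in MEFs in ferroptotic medium, 43 in MEFs in control medium, 47 in Hepa1 in ferroptotic medium and 45 in Hepa1 in control medium, and by 52 in at least 1 group. The other 17 included the liver-type transferase genes Gsta1 and Gsta2, with at most 2 reads over any group, and Aldh1b1, which had 18 reads in MEFs in ferroptotic medium, 32 in MEFs in control medium and none in Hepa1. The levels of Gsta1 and Gsta2 are uncertain, since 90.5% and 49.8% of their 50-base windows also occur in other annotated genes. Together the members took 0.214 to 0.221% of counts in MEFs in ferroptotic and 0.210 to 0.215% in MEFs in control medium. In Hepa1 their share was higher, at 0.547 to 0.557% in ferroptotic and 0.500 to 0.509% in control medium.

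**Figure D1:**
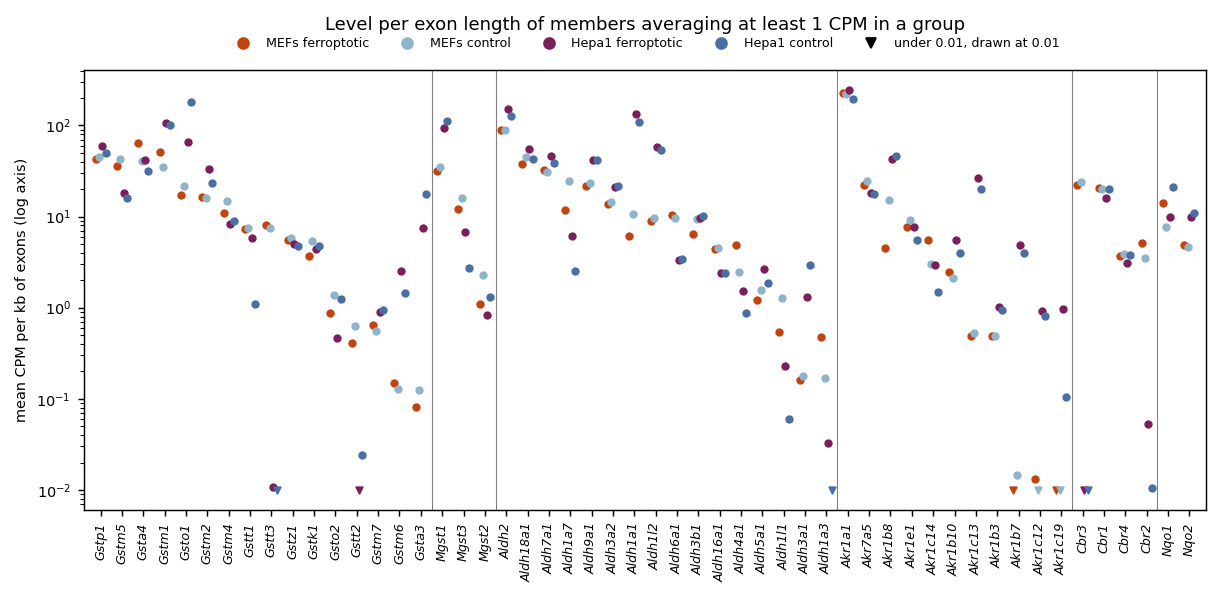
Mean level of the 52 members that reached 1 CPM in a group, in CPM per kilobase of merged exons on a log axis, for the 4 groups of 3 libraries, ordered by family. Akr1a1 stands highest in all 4 groups, and Gstt3, Cbr3 and Cbr2 are read in MEFs and near or at 0 in Hepa1.

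Per kilobase of exon, which allows genes to be compared, Akr1a1 had the highest level of the members in every group. This aldehyde reductase, which in mice also serves ascorbate synthesis, stood at 226 CPM per kilobase in MEFs in ferroptotic and 221 in control medium, and at 247 in Hepa1 in ferroptotic and 194 in control medium. Aldh2, the mitochondrial enzyme that clears acetaldehyde, followed in MEFs with 89.6 and 88.0 CPM per kilobase in ferroptotic and control medium. In Hepa1 Aldh2 had 150 in ferroptotic and 128 in control medium, and in control medium it came after Gsto1, an omega-class transferase that reduces dehydroascorbate, at 181 CPM per kilobase. Aldh1a1, which oxidises retinaldehyde to retinoic acid, was among the highest in Hepa1, at 133 in ferroptotic and 109 in control medium. Its level in MEFs was 6.15 in ferroptotic and 10.5 in control medium. Akr1c19, a gene of the hydroxysteroid dehydrogenase branch, was read in Hepa1 alone, with 0 reads in MEFs and 0.956 and 0.104 CPM per kilobase in Hepa1 in ferroptotic and control medium.

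In MEFs, more members were lower than higher in the medium of ferroptotic cells. The genes with the largest falls were Akr1b8, an aldose reductase-like enzyme once named for its regulation by fibroblast growth factor, Aldh1l1, a cytosolic formyltetrahydrofolate dehydrogenase of folate metabolism, Aldh1a7, a rodent relative of Aldh1a1, and Mgst2, a membrane transferase that can make leukotriene C4. The largest rises were those of Aldh1a3, another retinaldehyde dehydrogenase, Aldh4a1 of proline breakdown, Nqo1, and Akr1c14, a hydroxysteroid dehydrogenase. Of the 46 members with enough reads to be tested, 9 rose, 20 fell and 17 did not pass edgeR's quasi-likelihood test at a Benjamini-Hochberg adjusted p under 0.05 over all genes. The share called, 63.0%, lay beside a background of 55% of 14441 genes, of which 27.8% were higher and 27.2% lower, and the median log2 change was -0.063 for these members and 0.0033 for all genes tested. At a change of at least 2-fold, 1 member rose and 4 fell, and 6.76% of all genes passed in either direction. With total counts as the only scaling, which moves the median of all genes by 0.069, 14 members were higher and 16 lower. In bulk RNA fewer cells of a kind and less RNA per cell cannot be told apart.

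**Figure D2:**
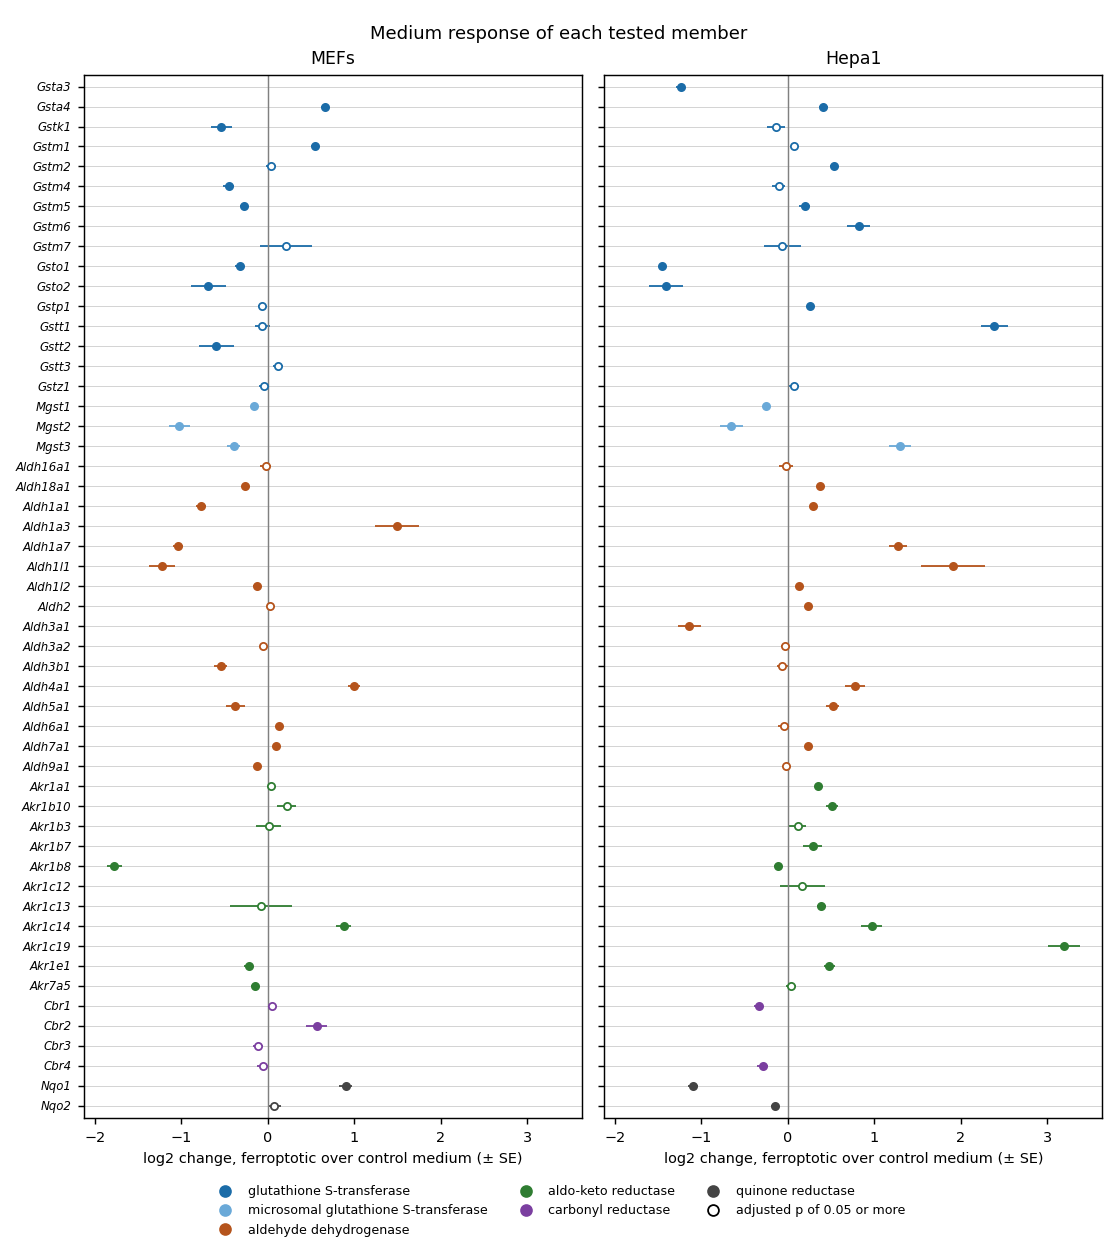
Log2 change with its SE for every tested member, ferroptotic over control medium, in MEFs (46 members, left) and Hepa1 (47 members, right), 3 libraries per group, filled where the adjusted p was under 0.05. Akr1b8 has the largest fall in MEFs and Akr1c19 the largest rise in Hepa1, and Nqo1 lies right of 0 in MEFs and left of 0 in Hepa1.

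Nqo1 (ENSMUSG00000003849, chromosome 8, 107388225 to 107403206, minus strand, GRCm38) had 22.4, 23.4 and 20.5 CPM in MEFs in ferroptotic medium, against 11.1, 12.1 and 12.3 CPM in MEFs in control medium. The groups did not overlap, and each ferroptotic-medium library lay above every control-medium one. Its log2 change was 0.90 (SE 0.0767, edgeR adjusted p = 7.97e-15). Nqo2, which prefers dihydronicotinamide riboside to NADPH, averaged 19.7 ± 1.33 CPM in ferroptotic and 18.7 ± 1.96 CPM in control medium (SD, n = 3 each) and did not pass the test (log2 change 0.08, edgeR adjusted p = 0.384).

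Among the cytosolic transferases of MEFs 2 of 14 rose, 6 fell and 6 did not pass. Gsta4, the alpha-class enzyme with a preference for the lipid peroxidation product 4-hydroxynonenal, had 79.7, 79.2 and 83.0 CPM in ferroptotic medium and 51.7, 51.0 and 50.7 CPM in control medium. The groups were far apart, and the log2 change was 0.66 (SE 0.0414, edgeR adjusted p = 7.16e-20). Gstm1, a mu-class enzyme, had 75.3, 73.6 and 78.2 CPM in ferroptotic and 52.1, 52.0 and 52.3 CPM in control medium. It rose by 0.54 on the log2 scale (SE 0.0418, edgeR adjusted p = 2.16e-16), though 18.9% of its 50-base windows also occur in other annotated genes, chiefly the pseudogene Gstm2-ps1. Its neighbours in the mu cluster on chromosome 3 were not called higher. Gstm4 and Gstm5 fell by 0.45 and 0.27, and Gstm2 was at 27.5 ± 0.247 CPM in ferroptotic and 26.9 ± 0.869 CPM in control medium (SD, n = 3 each).

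The omega-class genes and the kappa-class gene were lower in MEFs in ferroptotic medium. Gsto1 had 34.9, 34.4 and 36.4 CPM in ferroptotic and 43.4, 43.4 and 45.8 CPM in control medium, a log2 change of -0.32 (SE 0.0505, edgeR adjusted p = 2.64e-07). Gsto2, its less abundant neighbour, had 2.47, 2.38 and 1.26 CPM in ferroptotic and 4.00, 2.94 and 2.83 CPM in control medium. The groups did not overlap, but the log2 change of -0.69 (SE 0.199, edgeR adjusted p = 0.00286) became -0.42 with an edgeR adjusted p = 0.0795 without the third ferroptotic-medium library. Gstk1, a transferase of mitochondria and peroxisomes, fell by 0.54 and had 5.47 ± 0.379 CPM in ferroptotic and 7.94 ± 1.09 CPM in control medium (SD, n = 3 each). Gstt2 fell by 0.59 (SE 0.205, edgeR adjusted p = 0.0120) and was no longer called without the first ferroptotic-medium library (log2 change -0.38, edgeR adjusted p = 0.135). Gstp1, the pi-class gene whose reads are uncertain because 33.7% of its windows also occur in Gstp2, had 65.8 ± 1.14 CPM in ferroptotic and 69.0 ± 1.25 CPM in control medium and did not pass (edgeR adjusted p = 0.168).

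The 3 microsomal transferase genes all fell in MEFs. Mgst2 had 4.05, 4.44 and 3.83 CPM in ferroptotic and 7.95, 8.81 and 8.32 CPM in control medium, with no overlap and a log2 change of -1.02 (SE 0.120, edgeR adjusted p = 2.11e-10). Mgst3 averaged 13.1 ± 0.742 CPM in ferroptotic and 17.3 ± 1.35 CPM in control medium (SD, n = 3 each; log2 change -0.39). Mgst1, the abundant member with peroxidase activity, differed least, with 63.1, 63.5 and 62.7 CPM in ferroptotic and 69.8, 69.9 and 71.3 CPM in control medium. Its log2 change was -0.15 (SE 0.0403, edgeR adjusted p = 0.00109), and the call was lost with total counts as the only scaling (-0.084, edgeR adjusted p = 0.0774).

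Of 15 aldehyde dehydrogenase genes tested in MEFs 4 rose and 8 fell. Aldh1a1 (chromosome 19, 20492715 to 20643465, plus strand) had 28.3, 28.3 and 34.4 CPM in ferroptotic and 48.0, 52.5 and 55.7 CPM in control medium, a log2 change of -0.77 (SE 0.0585, edgeR adjusted p = 1.22e-16). Its neighbour Aldh1a7 (chromosome 19, 20692953 to 20727562, minus strand) had 23.3, 22.7 and 27.3 CPM in ferroptotic and 47.1, 50.8 and 53.0 CPM in control medium, a log2 change of -1.03 (SE 0.0581, edgeR adjusted p = 1.07e-21). In both genes all 3 control-medium libraries lay above all 3 ferroptotic-medium ones. Aldh1l1 had 2.25, 2.87 and 2.26 CPM in ferroptotic and 5.39, 6.21 and 5.67 CPM in control medium, again without overlap (log2 change -1.22, SE 0.151, edgeR adjusted p = 7.97e-10). Of its windows 10.02% also occur in other gene models, chiefly Gm15756, which overlaps it on the other strand. Smaller falls were called for Aldh3b1 (-0.54), Aldh5a1 of succinic semialdehyde breakdown (-0.37), Aldh18a1 of proline synthesis (-0.26), the mitochondrial folate enzyme Aldh1l2 (-0.13) and Aldh9a1 of carnitine synthesis (-0.12).

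In the opposite direction, Aldh4a1 (chromosome 4) had 23.6, 23.8 and 24.0 CPM in MEFs in ferroptotic and 12.8, 11.1 and 11.9 CPM in control medium. Its log2 change was 1.00 (SE 0.0738, edgeR adjusted p = 4.70e-17), and 30.03% of its windows also occur in the overlapping gene model Gm21969. Aldh1a3 was lower in abundance, with 2.14, 2.06 and 2.47 CPM in ferroptotic and 1.04, 0.720 and 0.590 CPM in control medium, and rose by 1.5 (SE 0.253, edgeR adjusted p = 1.26e-06). Aldh7a1 of lysine breakdown and Aldh6a1 of valine breakdown rose by 0.10 and 0.14, the last no longer called without the third control-medium library (0.089, edgeR adjusted p = 0.123). Aldh2 was at 459 ± 8.12 CPM in ferroptotic and 451 ± 8.52 CPM in control medium (SD, n = 3 each) and did not pass (log2 change 0.03, edgeR adjusted p = 0.366).

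Akr1b8 (ENSMUSG00000029762, chromosome 6, 34354119 to 34368463, plus strand) had the largest fall of any member in MEFs. It had 6.68, 6.44 and 6.95 CPM in ferroptotic medium, against 21.2, 25.4 and 22.3 CPM in control medium. Every control-medium library was far above the ferroptotic-medium ones, and the log2 change was -1.77 (SE 0.0876, edgeR adjusted p = 4.86e-24). The adjacent genes of the same branch did not pass the test. Akr1b10 had 8.69 ± 0.937 CPM in ferroptotic and 7.50 ± 0.418 CPM in control medium, and Akr1b3, the mouse aldose reductase, had 4.11 ± 0.622 CPM in ferroptotic and 4.09 ± 0.403 CPM in control medium (SD, n = 3 each). Akr1c14 on chromosome 13 had 16.4, 19.9 and 17.3 CPM in ferroptotic and 10.7, 8.92 and 9.51 CPM in control medium, without overlap, and rose by 0.88 (SE 0.0880, edgeR adjusted p = 1.66e-12). Akr1e1 and Akr7a5 fell by 0.22 and 0.15, while Akr1a1 averaged 622 ± 18.8 CPM in ferroptotic and 607 ± 12.2 CPM in control medium (SD, n = 3 each) and did not pass (edgeR adjusted p = 0.255).

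The carbonyl reductases of MEFs showed a single call. Cbr2, a mitochondrial enzyme known from mouse lung, had 6.08, 6.93 and 7.50 CPM in ferroptotic and 4.58, 4.49 and 4.84 CPM in control medium and rose by 0.57 (SE 0.124, edgeR adjusted p = 0.000108). Cbr1, which reduces quinones and prostaglandins, had 52.7 ± 2.03 CPM in ferroptotic and 50.9 ± 0.39 CPM in control medium, and Cbr3 had 27.6 ± 0.685 and 29.8 ± 0.926 CPM in ferroptotic and control medium (SD, n = 3 each). Neither passed, and nor did Cbr4 of mitochondrial fatty acid synthesis.

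In Hepa1 the balance was the other way round, with more members higher than lower in ferroptotic medium. Akr1c19, Gstt1, Aldh1l1, Mgst3 and Aldh1a7 rose by at least 2-fold, and Gsto1, Gsto2, Gsta3, Aldh3a1 and Nqo1 fell by at least 2-fold. Of 47 tested members 23 rose, 11 fell and 13 did not pass edgeR's test. The share called was 72.3%, beside 58.1% of 13169 genes in all, of which 29.3% were higher and 28.8% lower. The median log2 change was 0.13 for these members and 0.0045 for all genes, and 10 members passed with a 2-fold change, beside 6.57% of all genes. Without the third ferroptotic-medium library, in which Col1a2 reads stood apart, 23 members were higher and 9 lower.

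The largest rise was that of Akr1c19 (chromosome 13, 4228700 to 4252843, plus strand), which had 5.62, 5.86 and 5.43 CPM in Hepa1 in ferroptotic medium and 0.762, 0.589 and 0.480 CPM in Hepa1 in control medium. These are 406 reads over the group in ferroptotic and 43 in control medium, without overlap between libraries. The log2 change was 3.19 (SE 0.183, edgeR adjusted p = 1.22e-14). Of the other 10 aldo-keto reductase genes tested in Hepa1, 6 rose and 1 fell, all by less. Akr1c14 had 9.26, 10.4 and 8.75 CPM in ferroptotic and 5.75, 4.97 and 3.71 CPM in control medium (log2 change 0.97, SE 0.120, edgeR adjusted p = 7.09e-08). Akr1b10, Akr1e1, Akr1c13, Akr1a1 and Akr1b7 rose by 0.51, 0.48, 0.39, 0.35 and 0.29. Of these, Akr1c13 is uncertain, since 24.2% of its windows also occur in Akr1c12. Akr1b8 had 63.7, 64.9 and 65.3 CPM in ferroptotic and 67.9, 71.3 and 70.7 CPM in control medium, a log2 change of -0.11 (SE 0.0412, edgeR adjusted p = 0.0193). That call was lost without the first or the third ferroptotic-medium library (edgeR adjusted p = 0.0715 and 0.0667).

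Gstt1, a theta-class transferase that acts on small halogenated compounds, had 8.32, 8.93 and 9.16 CPM in Hepa1 in ferroptotic medium and 1.86, 0.968 and 2.23 CPM in Hepa1 in control medium. Every ferroptotic-medium library was well above the control-medium ones, and the log2 change was 2.39 (SE 0.156, edgeR adjusted p = 2.08e-13). Mgst3 had 7.17, 7.42 and 7.53 CPM in ferroptotic and 3.6, 2.32 and 3.10 CPM in control medium (log2 change 1.30, SE 0.129, edgeR adjusted p = 1.22e-09). Smaller rises were called for Gstm6 (0.82), Gstm2 (0.53), Gsta4 (0.41), Gstp1 (0.26) and Gstm5 (0.20). Gsta4 had 50.8, 53.2 and 53.7 CPM in ferroptotic and 39.3, 37.0 and 42.4 CPM in control medium. Gstm1, at 157 ± 2.83 CPM in ferroptotic and 150 ± 4.90 CPM in control medium (SD, n = 3 each), had a log2 change of 0.07 (edgeR adjusted p = 0.0993). It was called without the third control-medium library (0.093, edgeR adjusted p = 0.0318) and with total counts as the only scaling (0.12, edgeR adjusted p = 0.00595).

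The falls in Hepa1 were led by the omega-class genes and Gsta3. Gsto1 (chromosome 19, 47854970 to 47864790, plus strand) had 138, 131 and 132 CPM in ferroptotic and 339, 376 and 381 CPM in control medium, a log2 change of -1.45 (SE 0.0403, edgeR adjusted p = 1.03e-21). Gsta3, an alpha-class gene, had 33.4, 32.9 and 31.8 CPM in ferroptotic and 73.2, 77.8 and 80.8 CPM in control medium, a log2 change of -1.24 (SE 0.0485, edgeR adjusted p = 2.02e-18). In both genes the 3 libraries of each medium lay close together and the groups far apart. Gsto2 fell by 1.41 and had 1.09 ± 0.302 CPM in ferroptotic and 2.91 ± 0.256 CPM in control medium (SD, n = 3 each). Mgst1, at 190 ± 5.12 CPM in ferroptotic and 226 ± 11.7 CPM in control medium, and Mgst2, at 3.08 ± 0.428 and 4.85 ± 0.321 CPM in ferroptotic and control medium (SD, n = 3 each), fell by 0.25 and 0.65.

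Nqo1 had 14.8, 16.6 and 14.9 CPM in Hepa1 in ferroptotic medium, against 32.5, 33.5 and 33.2 CPM in Hepa1 in control medium. No library of either medium came near the other group, and the log2 change was -1.10 (SE 0.0620, edgeR adjusted p = 9.02e-15). Aldh3a1, which oxidises aromatic and medium-chain aldehydes and is known as a target of the aryl hydrocarbon receptor in Hepa1 cells, had 2.38, 2.34 and 2.96 CPM in ferroptotic and 6.01, 5.14 and 5.80 CPM in control medium. It fell by 1.14 (SE 0.134, edgeR adjusted p = 3.14e-08). Cbr1 and Cbr4 fell by 0.34 and 0.29. Nqo2 fell by 0.15 (edgeR adjusted p = 0.0135), a call lost without the second or the third ferroptotic-medium library (edgeR adjusted p = 0.0579 and 0.0840) and with total counts as the only scaling.

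The other aldehyde dehydrogenases of Hepa1 rose or did not pass, 9 of 15 being higher and Aldh3a1 alone lower. Aldh1a1 had 657, 670 and 649 CPM in ferroptotic and 546, 550 and 517 CPM in control medium, a log2 change of 0.29 (SE 0.0332, edgeR adjusted p = 1.42e-08). Aldh1a7 had 13.2, 11.8 and 12.6 CPM in ferroptotic and 4.32, 5.77 and 5.5 CPM in control medium, a log2 change of 1.27 (SE 0.100, edgeR adjusted p = 1.13e-11). Neither gene overlapped between media, and the relative change was larger in the less abundant relative. Aldh1l1 was near its floor in control medium, with 0.902, 1.39 and 0.810 CPM in ferroptotic and 0.169, 0.168 and 0.480 CPM in control medium, or 74 and 19 reads over the groups. Its log2 change was 1.91 (SE 0.369, edgeR adjusted p = 6.71e-05), and 2.57 without the third control-medium library. Aldh4a1, Aldh5a1, Aldh18a1, Aldh2, Aldh7a1 and Aldh1l2 rose by 0.77, 0.52, 0.37, 0.24, 0.23 and 0.13. Aldh2 had 758, 770 and 778 CPM in ferroptotic and 651, 609 and 701 CPM in control medium.

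**Figure D3:**
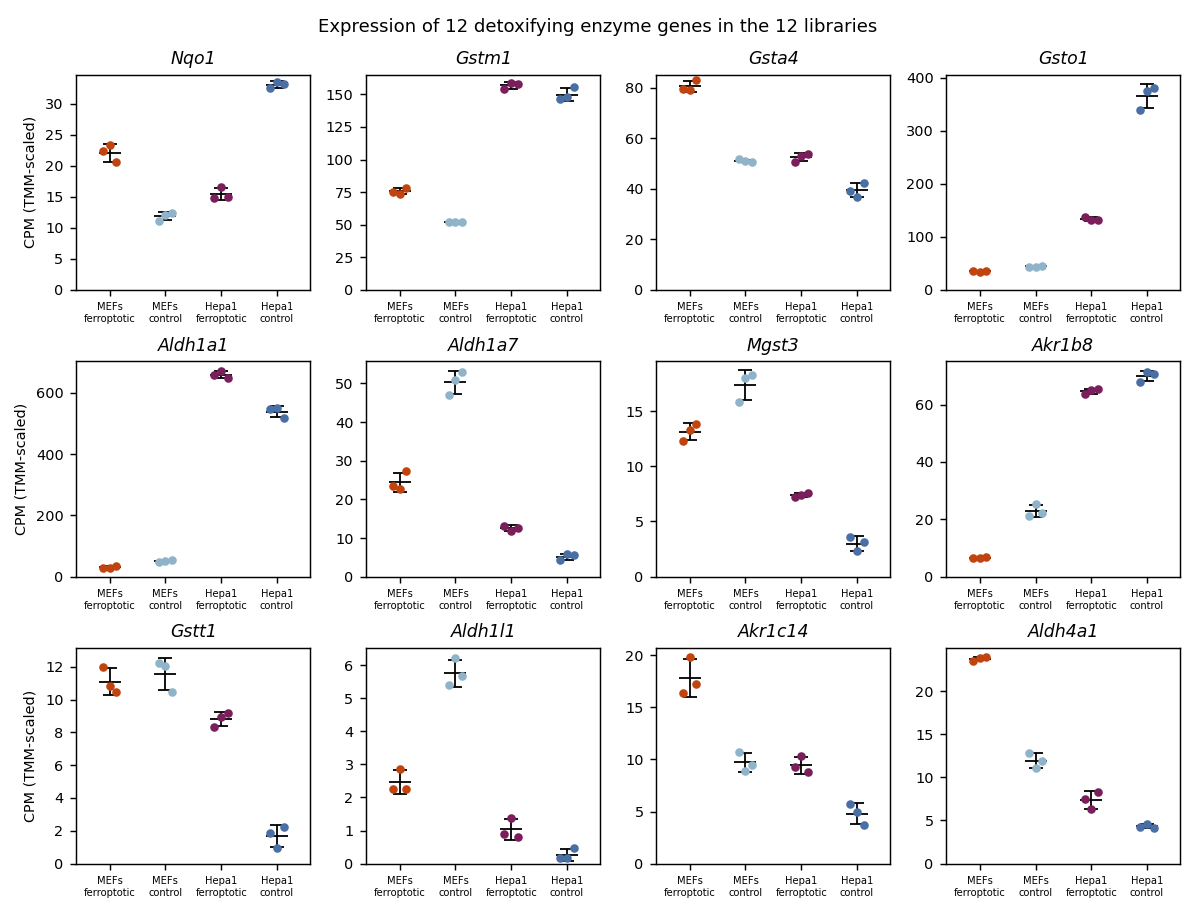
Level of 12 members in each of the 12 libraries, in TMM-scaled CPM on axes that start at 0, with points for libraries and bars for the mean and SD of each group of 3. Nqo1 is higher in ferroptotic medium in MEFs and lower in Hepa1, Aldh1a1, Aldh1a7, Mgst3 and Aldh1l1 show the reverse, and Gsta4, Akr1c14 and Aldh4a1 are higher in ferroptotic medium in both.

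Of 41 members tested in both cells, 4 rose in both (Gsta4, Akr1c14, Aldh4a1 and Aldh7a1), 5 fell in both (Gsto1, Gsto2, Mgst1, Mgst2 and Akr1b8) and 10 were called in opposite directions. These are 9.76%, 12.2% and 24.4% of the 41 members, beside 9.86%, 10.4% and 15.3% of the 12042 genes tested in both cells. Nqo1 was the single member called higher in MEFs and lower in Hepa1. The 9 called lower in MEFs and higher in Hepa1 were Aldh1a1, Aldh1a7, Aldh1l1, Aldh1l2, Aldh5a1, Aldh18a1, Akr1e1, Gstm5 and Mgst3. That direction was called for 7.62% of all genes, and the direction of Nqo1 for 7.66%. Of the 9 genes 6 are aldehyde dehydrogenases, a family with 14 of the 41 members. Among these 6, Aldh1l2 changed by only -0.13 in MEFs and 0.13 in Hepa1, and its MEF libraries overlapped between media. The remaining members tested in both were called in 1 cell type or in neither.

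The difference between the responses was tested over all 12 libraries as the log2 change in MEFs minus that in Hepa1. All 10 members with opposite calls passed this test. They were chosen by the same changes in the same libraries, so this is no separate support. In all, 7 of 52 members had a higher and 19 a lower response in MEFs, beside 20.9% and 23.3%, or 44.2% in either direction, of 15627 genes. With a difference of at least 2-fold there were 8 such members, 2 higher and 6 lower, beside 7.87% of all genes. The interaction was 2.00 for Nqo1 (SE 0.0977, edgeR adjusted p = 1.50e-21), -3.13 for Aldh1l1 (SE 0.389, edgeR adjusted p = 4.68e-09, and -3.79 without the third Hepa1 control-medium library), -2.31 for Aldh1a7 (SE 0.119, edgeR adjusted p = 1.09e-20), -1.69 for Mgst3 and -1.07 for Aldh1a1. Gstt1, which did not pass in MEFs at 11.1 ± 0.799 CPM in ferroptotic and 11.6 ± 0.976 CPM in control medium (SD, n = 3 each), differed from Hepa1 by -2.45 (SE 0.184, edgeR adjusted p = 2.94e-15). Genes that moved one way in both cells could still differ in size. The fall of Akr1b8 was larger in MEFs (interaction -1.66, SE 0.0944, edgeR adjusted p = 2.57e-19), that of Gsto1 was larger in Hepa1 (1.12, SE 0.0676, edgeR adjusted p = 1.91e-18), and the rise of Gsta4 was larger in MEFs (0.25, SE 0.0665, edgeR adjusted p = 0.00196). For Akr1c14 and Aldh4a1 the interaction was -0.09 (SE 0.154, edgeR adjusted p = 0.684) and 0.22 (SE 0.139, edgeR adjusted p = 0.206). For Gstm1, called in MEFs alone, it was 0.47 (SE 0.0558, edgeR adjusted p = 1.39e-09).

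**Figure D4:**
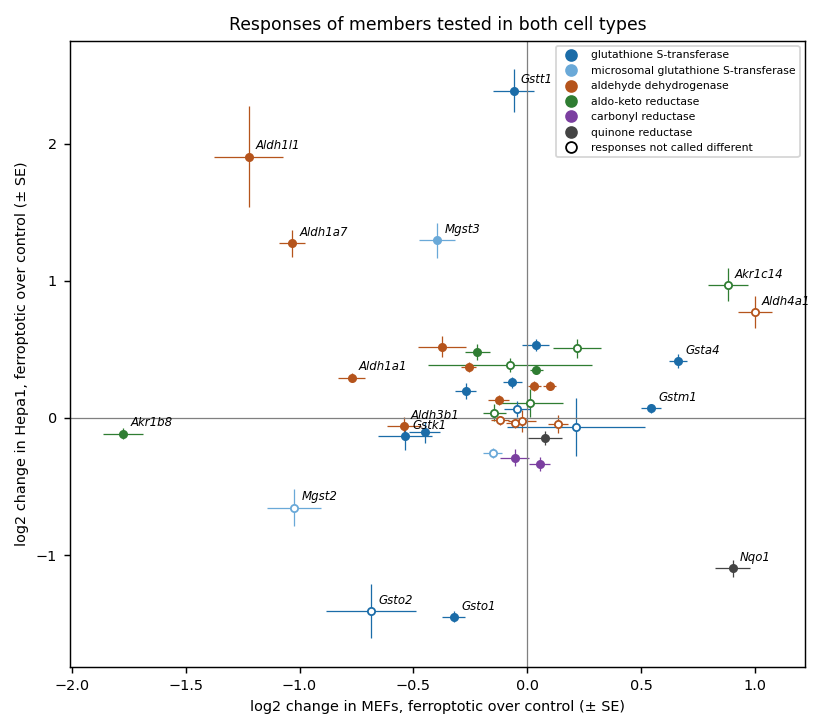
Log2 change of each of the 41 members tested in both cells, MEFs on the horizontal and Hepa1 on the vertical axis, ferroptotic over control medium, with SE bars from 3 libraries per group and filled points where the interaction had an adjusted p under 0.05. Nqo1 lies alone far into the lower right, and Aldh1l1, Aldh1a7, Mgst3 and Aldh1a1 lie in the upper left.

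Start regions of genes that moved in opposite directions are shown because the antioxidant response element lies upstream of many genes of these families. RefSeq promoters of build GRCm38.p6, from 250 bases before to 50 bases after the start, were matched for 59 of the 69 members, which have 71 of them. A core of the antioxidant response element, TGACNNNGC, and the core of the dioxin response element, GCGTG, were searched on both strands, and a GCGTG match lies inside the TGACNNNGC match of Gstm5. Capitals mark a match. Of the 10 members with opposite calls 9 have a RefSeq promoter, and 6 of these 9 (Akr1e1, Aldh1a1, Aldh1a7, Aldh1l1, Aldh5a1 and Nqo1) held neither core. Gstm5 held both, Aldh18a1 held GCGTG at 3 places and Mgst3 at 1. TGACNNNGC was thus held by 1 of the 9 and GCGTG by 3, beside 13.99% and 35.15% of all 27025 genes with a RefSeq promoter. The share of all genes with neither core was not counted, so a lack of cores is not shown to be particular to these members. Nqo1, the single member with opposite calls that rose in MEFs, the related neighbours Aldh1a1 and Aldh1a7, and Gstm5, the one with TGACNNNGC, are printed. Nqo1 (chr8:107403156-107403455, minus strand), Aldh1a1 (chr19:20601718-20602017, plus strand, the downstream of 2 RefSeq starts) and Aldh1a7 (chr19:20727507-20727806, minus strand) are the 3 without a match. Gstm5 (chr3:107895604-107895903, plus strand) held TGACCACGC, which ends in CACGC, the reverse complement of GCGTG, and a further CACGC upstream.
Nqo1: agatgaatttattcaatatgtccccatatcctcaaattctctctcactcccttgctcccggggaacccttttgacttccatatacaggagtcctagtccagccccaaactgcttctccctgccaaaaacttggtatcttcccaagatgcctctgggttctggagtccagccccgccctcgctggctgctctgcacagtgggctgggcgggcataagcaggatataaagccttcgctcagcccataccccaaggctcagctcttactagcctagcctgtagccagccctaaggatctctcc
Aldh1a1: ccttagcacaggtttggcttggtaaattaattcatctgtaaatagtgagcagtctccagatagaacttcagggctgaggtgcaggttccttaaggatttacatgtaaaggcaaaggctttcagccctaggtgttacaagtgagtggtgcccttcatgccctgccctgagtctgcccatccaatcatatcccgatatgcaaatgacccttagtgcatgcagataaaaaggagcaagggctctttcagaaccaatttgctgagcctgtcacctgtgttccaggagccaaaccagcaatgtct
Aldh1a7: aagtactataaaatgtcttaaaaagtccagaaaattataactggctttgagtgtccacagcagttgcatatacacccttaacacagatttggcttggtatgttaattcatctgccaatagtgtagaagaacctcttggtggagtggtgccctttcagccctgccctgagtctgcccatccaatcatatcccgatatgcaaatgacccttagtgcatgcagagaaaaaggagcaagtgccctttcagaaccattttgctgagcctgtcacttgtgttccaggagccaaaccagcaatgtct
Gstm5: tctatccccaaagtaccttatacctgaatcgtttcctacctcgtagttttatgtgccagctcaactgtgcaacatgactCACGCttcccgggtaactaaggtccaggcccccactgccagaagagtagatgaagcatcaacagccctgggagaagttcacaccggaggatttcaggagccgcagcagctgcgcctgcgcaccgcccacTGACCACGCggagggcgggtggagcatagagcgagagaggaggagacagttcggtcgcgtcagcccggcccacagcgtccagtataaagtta
When aligned, the printed sequences of Aldh1a1 and Aldh1a7 were identical at 233 of 322 columns, or 72.4%. The upstream RefSeq start of Aldh1a1 was identical to Aldh1a7 at 192 of 356 columns, or 53.9%. Of the 50-base windows of the transcripts, 3.06% of those of Aldh1a1 and 7.49% of those of Aldh1a7 also occur in the other gene.

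For comparison, Gsta3 (chr1:21240335-21240634, plus strand), the gene with the steepest fall in Hepa1 among those with a match, held TGACATTGC. Gsto1, which fell by more in Hepa1, held neither core in its RefSeq promoter. Akr1c19 (chr13:4233490-4233789, plus strand), the gene with the largest rise, held GCTTAGTCA, which is TGACNNNGC on the other strand, 7 bases after a RefSeq start that lies inside the span GENCODE gives to the gene.
Gsta3: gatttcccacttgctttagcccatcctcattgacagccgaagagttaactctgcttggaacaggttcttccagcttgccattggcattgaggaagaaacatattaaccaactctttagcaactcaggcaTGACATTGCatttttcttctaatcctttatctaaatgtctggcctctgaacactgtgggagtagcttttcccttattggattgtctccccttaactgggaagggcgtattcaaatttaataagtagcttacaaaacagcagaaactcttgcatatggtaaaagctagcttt
Akr1c19: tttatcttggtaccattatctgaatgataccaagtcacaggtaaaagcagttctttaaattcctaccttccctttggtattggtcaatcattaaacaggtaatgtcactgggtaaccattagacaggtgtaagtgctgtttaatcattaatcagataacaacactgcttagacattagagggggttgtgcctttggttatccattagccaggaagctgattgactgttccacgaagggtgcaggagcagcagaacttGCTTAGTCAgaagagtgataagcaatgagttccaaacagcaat
TGACNNNGC was found in 8 of 71 member promoters (11.3%) and in 12.4% of all 32851 RefSeq promoters. Of the members tested in Hepa1, Mgst1, Gstm5, Aldh9a1 and Gstm7 also held it. In Hepa1 Mgst1 fell by 0.25, Gstm5 rose by 0.20, and Aldh9a1 and Gstm7 did not pass. A link between a core and a change was not tested. GCGTG was found in 29.6% of member promoters and in 32.4% of all. The shares in members are therefore near those of all promoters, and elements farther from the start were not searched.

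MEFs and Hepa1 also differed in which members they used in control medium, a comparison that shares its control libraries with those above. MEFs read the carbonyl reductase genes Cbr2 and Cbr3 and the theta-class gene Gstt3, which had at most 1 read over the Hepa1 libraries in that medium, and Hepa1 read more Gsta3, Aldh1a1 and Gsto1. Of the aldo-keto reductases, Akr1b3, Akr1b7, Akr1b8, Akr1b10, Akr1c12, Akr1c13 and Akr1c19 were lower in MEFs, and Akr1a1, Akr1c14, Akr1e1 and Akr7a5 were higher in MEFs. Of 52 members tested, 21 were higher and 25 lower in MEFs, or 88.5%, beside 46% and 40.7%, together 86.6%, of 15627 genes. Of these 28 members differed by at least 2-fold, beside 47.3% of all genes. With total counts as the only scaling 16 were higher and 34 lower, as this shifts the median of all genes by -0.56. Cell type and Bach1 genotype cannot be told apart here.

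Cbr3 had 29.98, 28.8 and 30.6 CPM in MEFs in control medium and 0 reads in every Hepa1 library. With 3 reads per Hepa1 library as the floor, its level was at least 157-fold higher in MEFs, and that of Gstt3, with 1484 reads in MEFs and 0 in Hepa1, at least 150-fold higher. Cbr2 had 242 reads in MEFs and 1 in Hepa1, a ratio of 220 with an exact 95% counting interval of 39.2 to 8737. These folds, and those of Akr1b7, Akr1c12 and Akr1c19 below, use total counts as the only scaling. That scaling shifts the median log2 difference of all genes by -0.56, so they are not on the scale of the TMM-based differences. Gstt1 had 12.2, 12.02 and 10.4 CPM in MEFs and 1.86, 0.968 and 2.23 CPM in Hepa1 (log2 difference 2.78, SE 0.146, edgeR adjusted p = 4.28e-22). With Gstt2 (4.64), which had 7 reads over these Hepa1 libraries, all 3 tested theta-class genes, which lie together on chromosome 10, were higher in MEFs. Aldh1a7 and Aldh1l1 were higher in MEFs by 3.27 and 4.38, the last being 5.04 without the third Hepa1 control-medium library, and Mgst3 by 2.53. Akr1c14 was higher in MEFs by 1.01 (edgeR adjusted p = 3.59e-10).

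On the other side, Gsta3 had 0.522, 0.443 and 0.649 CPM in MEFs and 73.2, 77.8 and 80.8 CPM in Hepa1 in control medium, a log2 difference of -7.15 (SE 0.118, edgeR adjusted p = 4.48e-42). Akr1b7, a gene of the aldose reductase branch known from the mouse vas deferens, had 1 read in MEFs and 359 in Hepa1. By total counts Akr1b7 was 394-fold higher in Hepa1, with an exact 95% counting interval of 70.3 to 15619. Akr1c12, with 0 and 72 reads in MEFs and Hepa1, and Akr1c19, with 0 and 43, were at least 8.78-fold and 5.24-fold higher in Hepa1 with the same floor in MEFs. Aldh1a1 differed by -3.37 and Aldh1a7 by 3.27, so these neighbouring relatives differed between the 2 cells in opposite directions. The level of Aldh1a1 was 10.5 CPM per kilobase in MEFs and 109 in Hepa1, and that of Aldh1a7 was 24.3 in MEFs and 2.51 in Hepa1. Their order in MEFs rests on merged exon lengths of 4937 and 2066 bases. Without division by length Aldh1a1 and Aldh1a7 averaged 52.1 and 50.3 CPM in MEFs. Nqo1 was lower in MEFs with a log2 difference of -1.48, as were Gsto1 (-3.05), Aldh3a1 (-4.01), Akr1c13 (-5.26), Gstm1 (-1.52), Mgst1 (-1.69) and Aldh2 (-0.54). Gsta4 and Akr1a1, called higher in MEFs by 0.37 and 0.19, were called lower with total counts as the only scaling. Cbr1 was at 50.9 ± 0.39 CPM in MEFs and 51.2 ± 3.90 CPM in Hepa1 (SD, n = 3 each) and did not pass (log2 difference -0.01, edgeR adjusted p = 0.857).

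Genes around these enzymes were counted from lists of textbook members, 27 chiefly for glutathione supply and the export and breakdown of conjugates, 32 for other carbonyl and epoxide enzymes and 18 for regulators. The first list also holds Ptges, Hpgds, Ltc4s, Alox5ap, Glo1, Hagh and Gstcd. In MEFs in ferroptotic medium 6 of 22 tested genes of the first list were higher and 9 lower, and in Hepa1 3 of 20 were higher and 13 lower. For these lists the shares over all genes were 27.8% higher and 27.2% lower in MEFs and 29.3% higher and 28.8% lower in Hepa1. Gclc, the catalytic subunit of the rate-limiting enzyme of glutathione synthesis, rose to 49.7 ± 2.07 CPM in MEFs in ferroptotic medium, against 33.8 ± 2.38 CPM in control medium, and in Hepa1 had 68.8 ± 0.713 and 77.2 ± 4.05 CPM in ferroptotic and control medium (SD, n = 3 each). Its log2 changes were 0.56 in MEFs and -0.17 in Hepa1. The cystine transporter gene Slc7a11 rose by 0.78 in MEFs, with 7.31 ± 0.780 CPM in ferroptotic and 4.27 ± 1.40 CPM in control medium, and fell by 2.01 in Hepa1 (SD, n = 3 each). Of 18 genes of the first list tested in both cells 6 were called in opposite directions, beside 15.3% of all genes tested in both. All 6 passed the interaction, which rests on the same changes and is no separate support. Gclc, Gss, Slc7a11, Abcc4 and Abcc5 were higher in MEFs and lower in Hepa1, as was Nqo1, and Ptges was the reverse. Gclm and Gsr of the same list fell by 0.60 and 0.36 in Hepa1 but did not pass in MEFs (log2 changes 0.02 and -0.13). In MEFs the largest changes of the list were those of Ggt5, which cleaves glutathione conjugates (1.82), and Dpep1, a dipeptidase of the same path (-1.55).

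**Figure D5:**
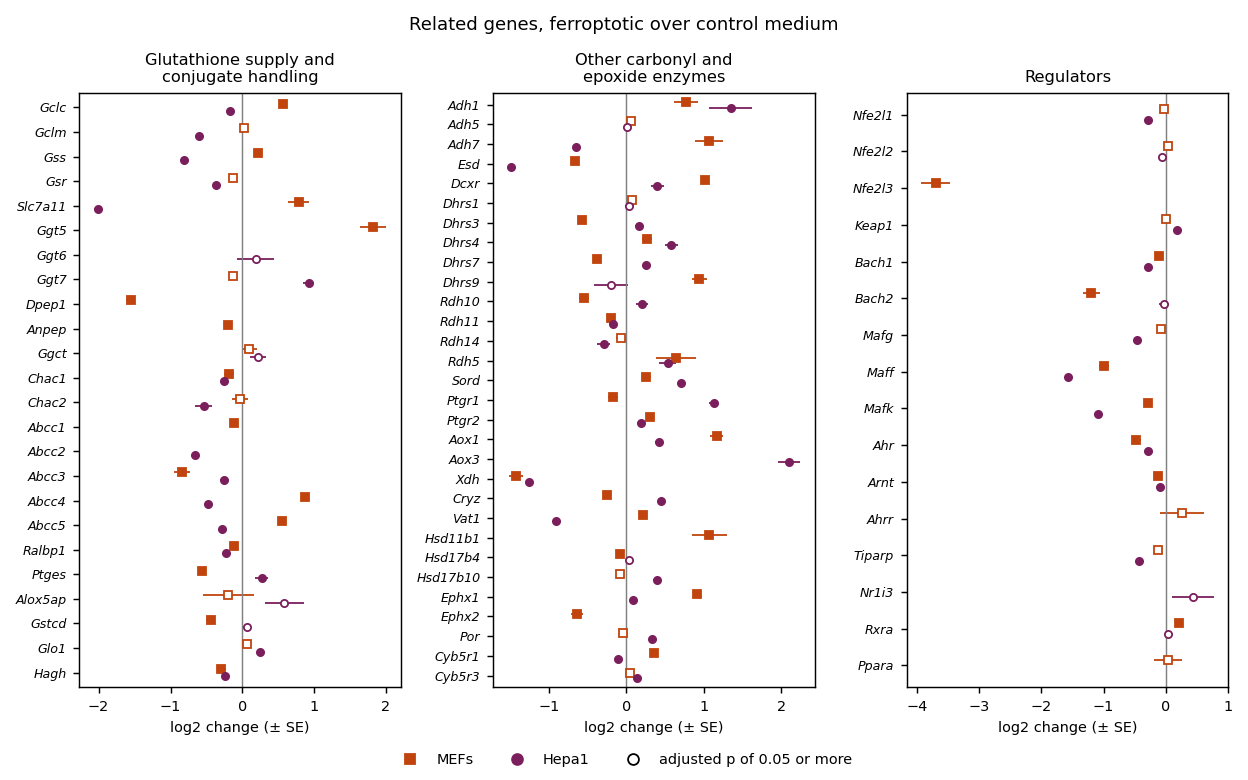
Log2 change with SE, ferroptotic over control medium, of the listed genes tested in MEFs (squares) or Hepa1 (circles), 3 libraries per group, filled where the adjusted p was under 0.05. The lists are glutathione supply and conjugate handling with further genes such as Ptges and Glo1, other carbonyl and epoxide enzymes, and regulators. Slc7a11 and Gclc lie right of 0 in MEFs and left of 0 in Hepa1, and Maff, Mafk and Ahr lie left of 0 in both.

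Other carbonyl enzymes were 13 higher and 10 lower of 29 tested in MEFs, and 17 higher and 7 lower of 28 in Hepa1. Of 27 tested in both, 8 were called in opposite directions, beside 15.3% of all genes tested in both. Of these 8, Adh7, Vat1 and Cyb5r1 were higher in MEFs and lower in Hepa1, and the other 5 were the reverse. Aox1, an aldehyde oxidase, rose by 1.17 in MEFs, and its relative Aox3 by 2.10 in Hepa1, where it had 463 reads in ferroptotic and 105 in control medium. Adh1, an alcohol dehydrogenase that also acts on retinol, rose by 0.77 in MEFs and 1.35 in Hepa1. Xdh, which forms uric acid and can oxidise aldehydes, fell by 1.42 and 1.25 in MEFs and Hepa1. Esd, which completes the glutathione-dependent removal of formaldehyde, fell by 0.66 in MEFs and 1.49 in Hepa1.

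Among the regulators 1 of 15 tested rose and 7 fell in MEFs, and 1 of 13 rose and 8 fell in Hepa1. Of 12 tested in both 5 were lower in both, beside 10.4% of all genes. These counts include Bach1 itself, labelled as knocked out in the MEFs, with log2 changes of -0.11 in MEFs and -0.28 in Hepa1. Its reads in MEFs do not check the deletion. The gene of NRF2, Nfe2l2, did not pass in either cell (log2 change 0.04 with edgeR adjusted p = 0.346 in MEFs, and -0.06 with edgeR adjusted p = 0.158 in Hepa1). Maff, a small partner protein of NRF2 and BACH1, fell by 0.99 in MEFs and 1.57 in Hepa1, and Ahr, the aryl hydrocarbon receptor, fell by 0.47 and 0.28 in MEFs and Hepa1. Nfe2l3, a relative of NRF2, had 0.443 ± 0.0460 CPM in MEFs in ferroptotic and 5.88 ± 0.930 CPM in MEFs in control medium (SD, n = 3 each) and fell by 3.71. Bach2, a relative of Bach1, fell by 1.20 in MEFs. These are levels of mRNA, and the activity of the proteins was not measured.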

How the data were processed

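RNA from 12 samples was sequenced, and groups were taken from the sample titles. The authors deposited raw read counts per Ensembl gene, for which the submitters' processing notes name HTSeq 0.9.1, STAR 2.7.10a, Trimmomatic 0.39, FastQC 0.11.9 and the build GRCm38 (mm10). Neither the annotation release nor the strand setting is given in those sources. Counts of the per-sample files and the series table differed at 0 values. The 5 HTSeq summary lines were set apart (2.00 to 2.58% of reads on no gene, 3.66 to 4.03% ambiguous). GENCODE M21 named 55227 of 55487 gene identifiers. HTSeq in its usual setting drops reads that map to several places, and without a strand setting reads of overlapping genes cannot be told apart. An exon on the other strand is overlapped by 12 members, and 1 on the same strand by 5. Those named in the text with an overlap on the other strand are Aldh1l1, Aldh1l2, Aldh5a1, Aldh6a1, Aldh7a1, Aldh2, Akr1b7, Gstm5 and Nqo2.

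Each cell type's 6 libraries were tested with edgeR 4.0.16 (filterByExpr, TMM, glmQLFTest) in R 4.3.3, with Benjamini-Hochberg adjustment over all genes tested and a call at 0.05. The interaction and the comparison of cells used all 12 libraries. SE is the absolute log2 change divided by the square root of F. Printed CPM, except plain CPM, come from the 12-library scaling, which moved members' log2 changes by at most 0.00449. Shared sequence was counted as the share of a gene's 50-base exon windows found in another gene. The pipeline was tested on simulated data.

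The labels do not state whether replicates were separate cultures. P-values therefore rest on the spread between these samples alone, and that spread may be technical. Its biological coefficient of variation was 2.45% in MEFs and 3.08% in Hepa1. The text names members by size of called change, up to 12 per direction in each medium comparison and 8 in the others, at 1 CPM or more, plus 12 chosen enzymes, and up to 6 related genes per medium comparison. Gclc, Nfe2l2, Ahr and other related genes outside that rule were named after their values were seen. Values of further members outside it, such as Gsto1, Nqo2 and Cbr3 between media in MEFs, are also given and are not among the 104 named results. The members, gene lists and tests were chosen with earlier results of these data known. Alternatives were DESeq2 1.42.0 size factors, no scaling, the DESeq2 Wald test, limma-voom (limma 3.58.1), other count filters, a replicate block, the 12-library fit and leaving out each library. Floors and intervals (95%) cover counting error only, and the folds given with them are scaled by total counts.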

Additional observations from a re-analysis of the deposited data

Results flagged for a closer look

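The response to the medium differed between the 2 cell types by the interaction test in edgeR over all 12 libraries for the members given here, as the log2 change in MEFs minus that in Hepa1. The difference was 2.00 for Nqo1, 1.12 for Gsto1, 0.47 for Gstm1, 0.39 for Cbr1, 0.25 for Gsta4, 0.23 for Cbr4 and 0.22 for Nqo2. It was -3.13 for Aldh1l1, -2.45 for Gstt1, -2.31 for Aldh1a7, -1.69 for Mgst3, -1.66 for Akr1b8, -1.07 for Aldh1a1, -0.90 for Aldh5a1 and -0.70 for Akr1e1. For Cbr4 and Nqo2 the adjusted p was 0.0291 and 0.0411, and those of the other members were at most 0.00196. Cell type and Bach1 genotype cannot be told apart in these differences.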

How the results depend on the processing

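The 104 named results gave 1690 values under the alternatives, of which 1641 kept their direction and their side of the threshold, 28 lost a call, 8 gained one and 13 reversed. With total counts as the only scaling, 14 members instead of 9 were called higher in MEFs, Gstp1 in MEFs moved to 0.0030, and Gsta4 and Akr1a1 in MEFs against Hepa1 moved to -0.19 and -0.38. Reversals elsewhere were of values near 0. For Akr1b3 in MEFs the log2 change ran from -0.066 to 0.13 with each library left out, being -0.017 and -0.045 without control-medium replicates 1 and 3 and -0.066 and -0.039 without ferroptotic-medium replicates 2 and 3. Its interaction ran from -0.22 to 0.015, the highest without MEF ferroptotic-medium replicate 1, and was 0.0042 without Hepa1 control-medium replicate 1. Cbr1 in MEFs against Hepa1 became 0.018 with DESeq2 size factors and with the DESeq2 Wald test, 0.068 with the replicate block, and -0.0504 to 0.0509 with each library left out, the highest without Hepa1 control-medium replicate 3. The interactions of Cbr4 and Nqo2 lost their calls with the DESeq2 Wald test (adjusted p = 0.0609 and 0.0643), that of Nqo2 also with limma-voom (adjusted p = 0.0510), and both with no low count filter, and without 5 and 7 of the 12 libraries, each left out in turn, and the cause was not tested.

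With each library left out in turn, 8 to 10 members were called higher and 17 to 20 lower in MEFs, 21 to 24 higher and 9 to 12 lower in Hepa1, 5 to 8 higher and 18 to 21 lower in the interaction, and 21 to 22 higher and 24 to 25 lower in MEFs against Hepa1. Where that left a group with 2 libraries, the spread was pooled over the groups. Same-numbered libraries did not deviate together (correlation -0.0374 to 0.0408, with 1 replicate of each cell closest to its own number), so the numbers were not taken as pairs. With the replicate block 9 members were higher and 20 lower in MEFs, 23 and 11 in Hepa1, 8 and 20 in the interaction, and 21 and 23 in MEFs against Hepa1. Members with few reads limit the precision, and under 3 reads in a library no level can be read.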
